A study of Rattus norvegicus with 8 samples.

Results

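The genes described here are 8 components of the PI3K, AKT and mTOR signalling route: the catalytic subunit genes Pik3ca and Pik3cb, the regulatory subunit genes Pik3r1 and Pik3r2, the kinase genes Akt1 and Akt2, Mtor and Gsk3b. They were picked by name from the 26514 gene names on the array, and every non-control probe annotated to them was used, which gave 13 probes: 6 for Pik3ca and 1 for each of the other 7 genes. RNA came from the lumbosacral spinal cord (segments L6 and S1) of male Wistar rats aged 12 weeks. In the stress group, 4 rats spent 1 h a day for 10 days on a small platform surrounded by water, a psychological stressor called water avoidance, and the cord was taken 24 h after the last session. The control group was 4 rats of the same sex and age that were handled without this stress. Each rat was hybridised to its own array.

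PI3K is a lipid kinase made of a catalytic p110 subunit, encoded by genes such as Pik3ca and Pik3cb, and a regulatory p85 subunit, encoded by genes such as Pik3r1 and Pik3r2. Activated by receptors for insulin and growth factors, it makes the membrane lipid PIP3, which recruits AKT. AKT then phosphorylates GSK3 beta, which inhibits it, and relieves the brake on the mTOR kinase, which controls protein synthesis and autophagy. In the spinal cord the route is known for its part in neuronal survival, myelination and the sensitisation of pain pathways. Much of its regulation is by phosphorylation, which an RNA array does not measure.

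Each probe is a stretch of 60 bases of the transcript. The probes of Akt1 and Akt2 are shown first, because these kinases are close relatives whose signals could mix. They are placed against each other without gaps, over 46 bases of overlap, and capitals mark the 34 bases (73.9%) at which both are the same. The 12 differing bases are spread along the overlap.
Akt1: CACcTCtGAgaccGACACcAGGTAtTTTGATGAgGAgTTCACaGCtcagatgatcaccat
Akt2: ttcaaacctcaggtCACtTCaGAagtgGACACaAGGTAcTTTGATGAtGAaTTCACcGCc

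In the build of the file annotation (rn4), the Akt1 probe lies on the minus strand at chr6:137641146-137641205 and the Akt2 probe on the plus strand at chr1:82725226-82725285. The probe of Pik3r1, the gene with the widest spread of values, lies on the minus strand at chr2:32602673-32602731 and starts at base 2116 of its transcript. The Pik3ca probes at bases 372, 752 and 1536 of the transcript are shown because the first and last of them gave a large difference between the groups and the one between them did not. They lie on the plus strand, at chr2:118640649-118640708, chr2:118641028-118641087 and, with an intron inside the interval, chr2:118650104-118654600. Which exons or untranslated parts the probes fall in was not analysed here.
Pik3r1: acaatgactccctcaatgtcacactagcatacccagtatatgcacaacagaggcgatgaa
Pik3ca, base 372: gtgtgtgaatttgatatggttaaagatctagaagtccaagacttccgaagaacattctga
Pik3ca, base 752: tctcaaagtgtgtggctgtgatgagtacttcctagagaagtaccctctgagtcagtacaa
Pik3ca, base 1536: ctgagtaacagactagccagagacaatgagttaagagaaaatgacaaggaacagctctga

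Signals are given as log2 values relative to the 75th percentile of the same array, so that 0 is the level of that percentile and a step of 1 is a doubling. The 75th percentile ranged from 1751 to 1945 intensity units on the stressed arrays and from 1841 to 2335 on the control arrays, and 23005 to 24066 probes per array were well above background. A probe counted as called when its Benjamini-Hochberg adjusted p from limma, over 23678 tested probes, was below 0.1. The 8 arrays shared 1 slide, with all stressed arrays in row 1 and all control arrays in row 2, so row and group cannot be told apart. Markers of astrocytes, microglia, oligodendrocytes and neurons were detected on the arrays. The summed level of 5 Schwann cell and nerve root markers, in multiples of the 75th percentile, ranged from 0.301 to 53.1 in controls and from 0.296 to 13.4 in stressed rats, and that of 3 lumbosacral Hox genes from 4.93 to 6.78 and from 1.48 to 6.21. Among the 5 Schwann cell markers 1 was called, and it was higher after stress, while none of the 3 Hox genes was called. The part of these markers in the values below was not tested.

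Control rat 2 stood apart from the other controls. On the first principal component, which held 54.1% of the variance, it lay at 46.1, the stressed rats between 8.23 and 34.5, and the other 3 controls between -56.3 and -39.4. The arrays also differed in the signal of probes near the 5′ end relative to probes near the 3′ end of the same transcript, over 1875 transcripts. This 5′-3′ difference, on the log2 scale, was between 0.0914 and 0.167 in stressed rats and 0.220 in control rat 2, against -0.300, -0.299 and -0.178 in controls 1, 3 and 4. Results are therefore given for all 8 rats, without control rat 2, and with the 5′-3′ difference as a covariate. Among the controls, only control rat 2 had a 5′-3′ difference on the stressed side, so the covariate fit depends largely on that rat. Its differences, SEs and calls are not a view separate from control rat 2. The 2 added fits are descriptions of how the values move and do not replace the fit of all 8 rats.

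None of the 13 probes was called with all 8 rats, against 3.74% of all tested probes (2.77% higher and 0.971% lower in stressed rats), and 4 had an unadjusted p below 0.05, against 20.3%. The difference, stress minus control, was positive at 9 probes (69.2%) and negative at 4, beside 59.6% positive over all tested probes. Its median was 0.27 on the log2 scale, beside 0.06 over all tested probes. The member median depended on the setting. It was 0.15 with normexp background correction, beside 0.07, and 0.14 with quantile normalization, beside 0. With the covariate it was -0.07, beside -0.04. Without control rat 2, 10 of the 13 were called, 8 higher and 2 lower in stressed rats, and they came from 7 of the 8 genes. The background then was 42.4% of all tested probes, 30.5% higher and 11.9% lower, so leaving out that rat moved a large share of the array and not these genes alone. With the covariate 2 were called, Akt1 and Pik3r2, both lower, against a background of 10.1% (4.86% higher and 5.19% lower). In whole tissue, fewer cells of a type and less RNA per cell cannot be told apart.

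**Figure D1:**
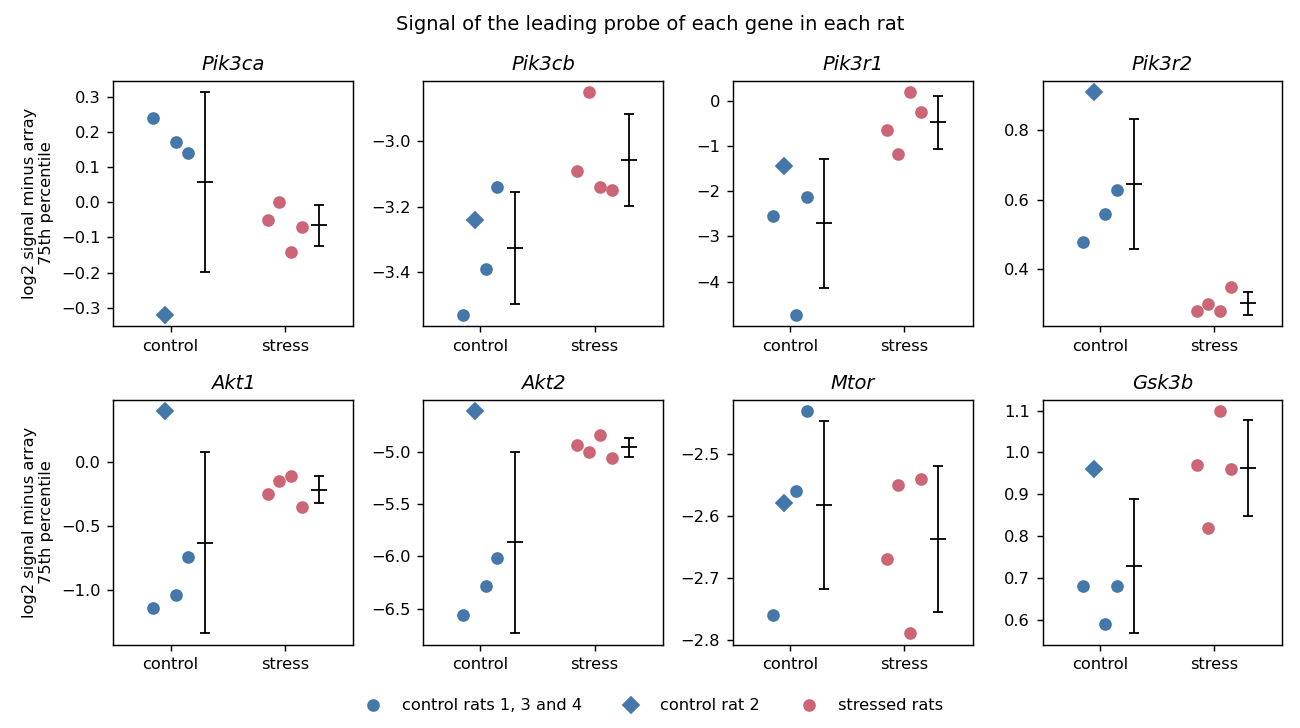
Signal of the leading probe (the one with the highest mean signal) of each of the 8 genes, on the vertical axis as log2 signal minus the array's 75th percentile, for each of the 4 control and 4 stressed rats; the bar is the mean and SD of each group. Pik3r1 and Pik3r2 are the genes whose groups do not overlap, and control rat 2 (diamond) lies apart from controls 1, 3 and 4 in the direction of the stressed rats for Pik3ca, Pik3r1, Akt1, Akt2 and Gsk3b.

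The values of the regulatory subunit genes separated the groups, in opposite directions, though neither was called. Pik3r1 encodes the p85 alpha subunit, which holds and stabilises the catalytic subunit. Which transcript forms its single probe reads was not analysed. The probe read -0.63, -1.18, 0.20 and -0.25 in stressed rats 1 to 4. In control rats 1 to 4 it read -2.54, -1.43, -4.74 and -2.13. Every stressed rat was above every control, and control rat 3 was far below the other controls. The difference was 2.24 on the log2 scale (SE 0.67, 95% interval 0.69 to 3.80, n = 4 and 4), a 4.74-fold higher mean signal in stressed rats, with an adjusted p of 0.145 in limma. By size this was number 30 of 23678 tested probes (0.127% were at least as large), and by p-value number 1736.

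The size of the Pik3r1 difference depended on single controls. Without control rat 3 it was 1.57 (limma adjusted p = 0.231), and without control rat 2 it was 2.67 (limma adjusted p = 0.0209). With the 5′-3′ covariate it was 1.13 (limma adjusted p = 0.419, 95% interval -0.67 to 2.93). The sign was positive in each of the 18 settings tried, and the probe was called in 2 of them. As the groups did not overlap, leaving out any array could not change the sign, so its constancy adds little.

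Pik3r2, which encodes the p85 beta subunit, read 0.28, 0.30, 0.28 and 0.35 in stressed rats 1 to 4 and 0.48, 0.91, 0.56 and 0.63 in control rats 1 to 4. The stressed rats lay within a narrow band below all 4 controls, and control rat 2 was the highest of the 8. The difference was -0.34 (SE 0.10, 95% interval -0.57 to -0.11), a mean signal 0.790 times that of controls, with a limma adjusted p of 0.141. Unlike most of the other members, here control rat 2 lay on the side away from the stressed rats, and without it the difference was smaller, -0.25, but called (limma adjusted p = 0.0183). With the covariate it was -0.54 and called (limma adjusted p = 0.0388). The sign was negative in each of the 18 settings, 4 of which called the probe. Here too, leaving out any array could not have changed the sign.

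With all 8 rats these 2 probes were the members whose groups did not overlap, 2 of 13 beside 12.1% of all tested probes. For Pik3r1 and Pik3r2 the exact two-sided permutation test over the 70 ways to divide the rats gave p = 0.0286, the smallest it can give, which follows from the lack of overlap and adds nothing to it. Neither passed the adjustment over the array. Without control rat 2 the groups of 9 member probes did not overlap, beside 43.8% of all tested probes.

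Both AKT genes had control rat 2 as the highest of the 8 rats. Akt1, the broadly expressed AKT kinase, read -0.25, -0.15, -0.11 and -0.35 in stressed rats 1 to 4 and -1.14, 0.40, -1.04 and -0.74 in control rats 1 to 4. The stressed rats lay above controls 1, 3 and 4 and below control 2, which was the highest of all. The probe is printed in 10 spots per array, and the SD of these spots within an array was 0.03 to 0.09, which measures spot noise only. The SD among the 4 controls was 0.71. The difference was 0.41 (SE 0.32, limma adjusted p = 0.472), and without control rat 2 it was 0.76 (SE 0.11, limma adjusted p = 0.00334). With the covariate, whose fit depends largely on control rat 2, the sign turned: -0.39 (SE 0.08, limma adjusted p = 0.0491).

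Akt2, the AKT kinase known for insulin-stimulated glucose uptake, had a dim probe on which control rat 2 was again the highest and controls 1, 3 and 4 the lowest. It read -4.94, -5.00, -4.84 and -5.06 in stressed rats 1 to 4 and -6.56, -4.61, -6.28 and -6.02 in control rats 1 to 4. Again the stressed values formed a tight band, with SD 0.09 against 0.87 in controls, between control rat 2 above and the other controls below. The difference was 0.91 (SE 0.38, limma adjusted p = 0.241). It was 1.32 without control rat 2 (limma adjusted p = 0.00098), -0.08 with the covariate (limma adjusted p = 0.708) and 0.15 under normexp background correction.

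**Figure D2:**
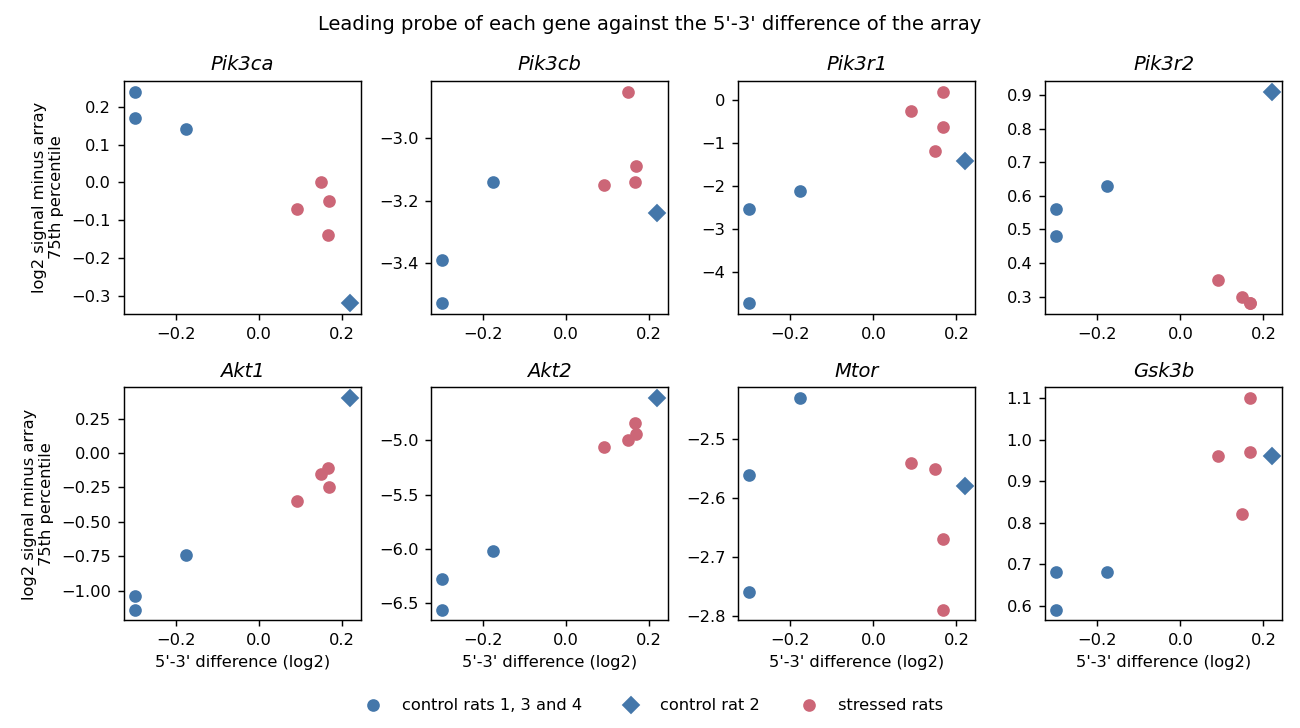
Leading probe of each gene (vertical axes, log2 signal minus the array's 75th percentile) against the 5′-3′ difference of the same array (horizontal axes, log2), 1 point per rat. Controls 1, 3 and 4 have 5′-3′ differences of -0.300 to -0.178 and the other 5 rats 0.0914 to 0.220. Akt1, Akt2, Pik3r1 and Gsk3b are higher in those 5 rats and Pik3ca is lower, while Mtor values of the 2 sets of arrays are interleaved.

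The signal of Akt1 and Akt2 was thus higher in all 5 arrays with a positive 5′-3′ difference, 1 of them a control, and lower in the 3 with a negative one. The Pik3r1 and Gsk3b probes divided the arrays in the same way. This is given as a description of 8 arrays, and the cause of either difference was not tested. The pattern of the Akt1 and Akt2 probes was widely shared: over the 8 arrays, 904 probes of other genes had a Pearson r above 0.95 with Akt1 and 1214 with Akt2.

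Gsk3b, which encodes a kinase that AKT inhibits, read 0.97, 0.82, 1.10 and 0.96 in stressed rats 1 to 4 and 0.68, 0.96, 0.59 and 0.68 in control rats 1 to 4. Control rat 2 lay inside the stressed range, and the other 3 controls lay below it. The difference was 0.23 (SE 0.10, 95% interval -0.01 to 0.47, limma adjusted p = 0.256), 0.31 without control rat 2 (limma adjusted p = 0.0222) and 0.05 with the covariate (limma adjusted p = 0.789). Its 10 spots per array had SDs of 0.03 to 0.06.

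Mtor, the kinase shared by mTORC1 and mTORC2, read -2.67, -2.55, -2.79 and -2.54 in stressed rats 1 to 4 and -2.76, -2.58, -2.56 and -2.43 in control rats 1 to 4. The groups overlapped over most of their range, and control rat 2 lay between the other controls. The difference was -0.05 (SE 0.10, limma adjusted p = 0.768). Its 95% interval, -0.27 to 0.17, holds the changes that this fit of the single probe does not reject, and is not a bound on the change. The difference was -0.05 without control rat 2, -0.07 with the covariate and -0.16 with quantile normalization, and no setting called it.

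Pik3cb, for the p110 beta subunit, read -3.09, -2.85, -3.14 and -3.15 in stressed rats 1 to 4 and -3.53, -3.24, -3.39 and -3.14 in control rats 1 to 4. Control rat 4 lay within the stressed range and the other 3 controls below it, and control rat 2 lay among its group. The difference was 0.27 (SE 0.11, limma adjusted p = 0.238), and it was 0.29 without control rat 2 (limma adjusted p = 0.0975) and 0.16 with the covariate (limma adjusted p = 0.540).

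Pik3ca, for the p110 alpha subunit, is the member that can be read at several places along its transcript. From the 5′ to the 3′ end the differences at its probes were 0.88 at base 372, -0.05 at base 752, 0.75 at base 1536, 0.28 at base 2355, 0.08 at base 3125 and -0.12 at base 6133. Apart from the probe at base 752 they fell step by step along the transcript. In the same order these probes grew brighter, with control means of -7.25, -5.67, -3.27, -0.37 and 0.06. Under normexp background correction their differences were 0.21, 0.29, 0.21, 0.05 and -0.1, without a fall at each step. Whether the fall goes with place or with brightness was not tested. None was called, with limma adjusted p between 0.277 and 0.847.

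The probes at bases 1536 and 6133 placed control rat 2 at opposite ends. At base 1536 the signal was -4.88, -4.75, -4.55 and -5.51 in stressed rats 1 to 4 and -6.17, -4.16, -6.27 and -6.09 in control rats 1 to 4. At base 6133, the brightest probe of the gene, it was -0.05, 0.00, -0.14 and -0.07 in stressed rats and 0.24, -0.32, 0.17 and 0.14 in controls. Control rat 2 was the highest of the 8 at the first and the lowest at the second, and the other controls were the lowest and the highest. The probe at base 372 was well above background in 4 stressed and 2 control rats only.

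Without control rat 2 the Pik3ca differences ran from 1.27 at base 372 (limma adjusted p = 0.0157) and 1.26 at base 1536 (limma adjusted p = 0.00607) to 0.44 at base 2355 (limma adjusted p = 0.0288), 0.13 at base 3125 (limma adjusted p = 0.373) and -0.25 at base 6133 (limma adjusted p = 0.0201). Of the probes well above background on all 8 arrays, 2 were then called higher and 1 lower for the same gene. The value at base 372 rests on controls of which only 2 of 4 were well above background, so its size is uncertain. With the covariate these 5 were -0.07, -0.43, -0.11, -0.08 and 0.16, and none was called. The probe at base 752 stayed at -0.07 without control rat 2 and within 0.01 of 0 with the covariate.

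**Figure D3:**
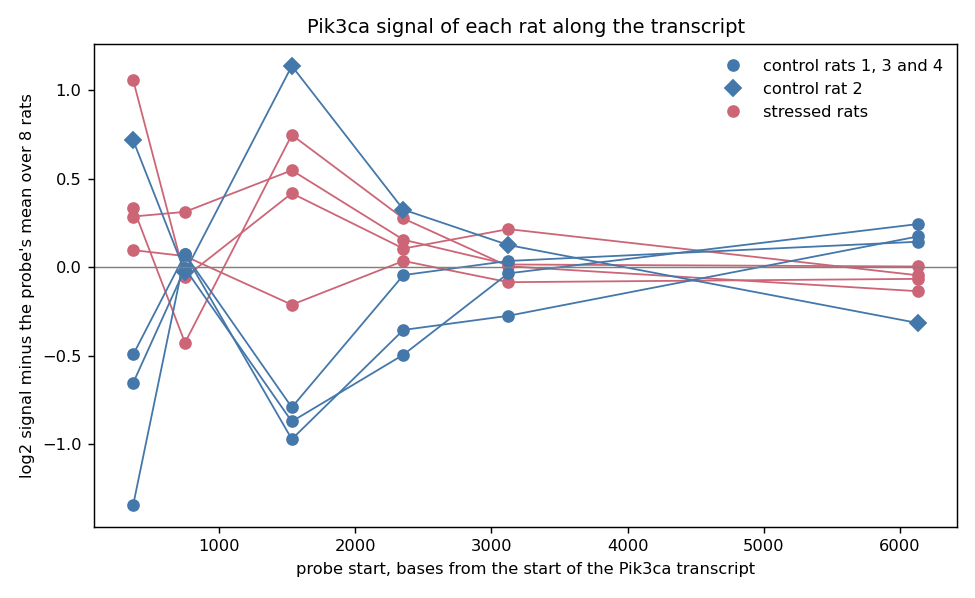
Pik3ca signal of each rat at 6 probes, as log2 signal minus the mean of that probe over the 8 rats (vertical axis), against the start of the probe in the transcript in bases (horizontal axis); lines join the probes of 1 rat. Control rat 2 (diamonds) runs with the stressed rats and opposite to controls 1, 3 and 4 at bases 372, 1536, 2355 and 6133, and the rats lie closest together at bases 3125 and 6133.

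Control rat 2 lay outside the range of the other 3 controls at 11 of the 13 member probes, beside 81.3% of all tested probes, and at 10 of them it lay on the side of the stressed mean, beside 66.3%. It was the highest or lowest of all 8 rats at 6 probes. The share over all tested probes was not computed for this count, so it is not read as a trait of the members. The SD was larger among controls than among stressed rats at 12 of the 13 probes, beside 70.5% of all tested probes, with median SDs of 0.25 and 0.12 beside 0.22 and 0.13 over all tested probes.

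**Figure D4:**
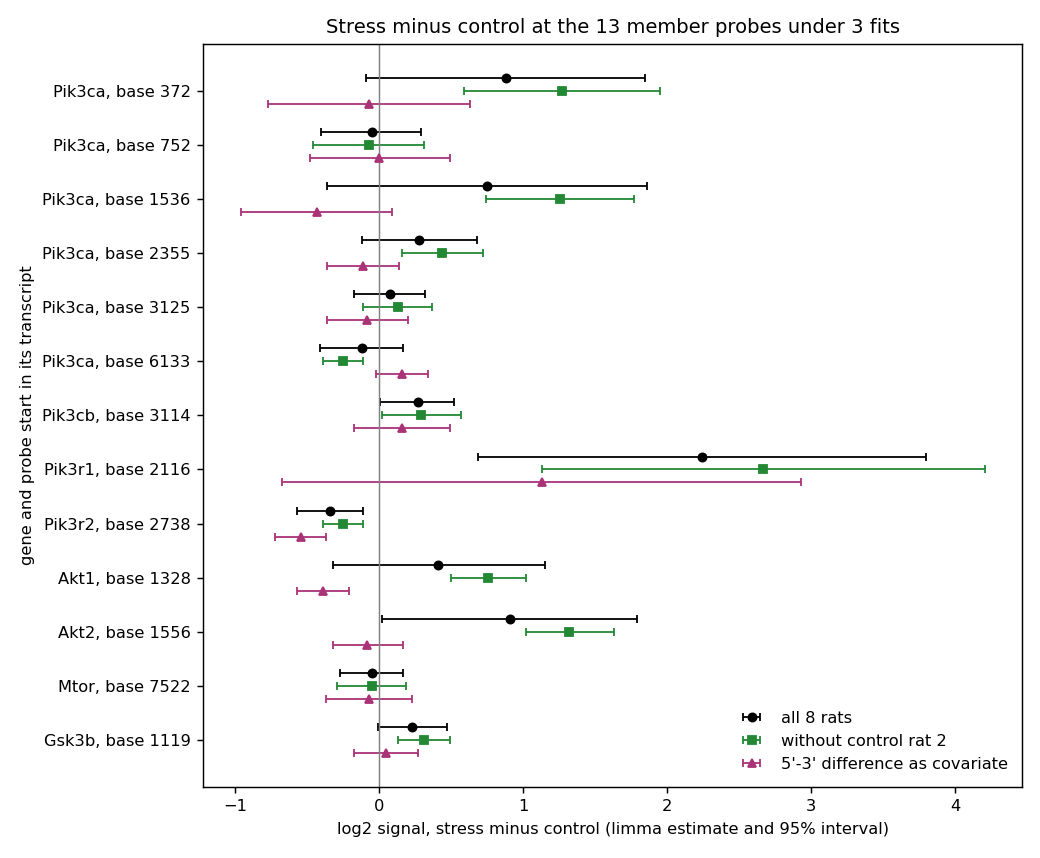
Difference in log2 signal, stress minus control, at the 13 member probes (horizontal axis, limma estimate with its 95% interval) with all 8 rats (circles), without control rat 2 (squares) and with the 5′-3′ difference as a covariate (triangles). The estimates of Pik3r1, Pik3cb and Gsk3b stay above 0 in all 3 fits, and that of Pik3r2 stays below 0. With the covariate the intervals of Pik3r1 (-0.67 to 2.93), Pik3cb and Gsk3b hold 0. Mtor stays near 0, and Akt1 moves from 0.41 to 0.76 and -0.39.

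For each member, the other gene with the most similar leading probe over the 8 arrays, by Pearson r, was Mnat1 for Pik3ca (0.997), Fastkd5 for Pik3cb (0.966), Glp1r for Pik3r1 (0.968), Rxrb for Pik3r2 (0.986), Bap1 for Akt1 (0.999), Lrig1 for Akt2 (0.999), Nfs1 for Mtor (0.987) and Rc3h2 for Gsk3b (0.986). These are the highest of about 15976 probes searched, and the arrays share the division by control rat 2 described above. While 904 and 1214 probes followed Akt1 and Akt2, 2 passed an r of 0.95 with Mtor and 9 with Pik3r1.

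The wider pathway was read from a list of 72 other genes, of which 68 had a probe and 66 a tested one. Of 79 tested probes 1 was called, beside 3.74% of all tested probes, and 8 were higher and 5 lower at an unadjusted p below 0.05, beside 20.3%. The median difference was 0.08, beside 0.06 over all tested probes. Without control rat 2, 30 were called higher and 13 lower, beside 30.5% and 11.9% of all tested probes. With the covariate 3 were called higher and 5 lower, beside 4.86% and 5.19%.

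Among the energy and stress inputs to mTORC1, Sesn1 was the called gene. Sesn1 encodes sestrin 1, which restrains mTORC1. It read -2.75, -2.49, -2.85 and -2.67 in stressed rats 1 to 4 and -3.37, -3.06, -3.39 and -3.36 in control rats 1 to 4. All stressed rats lay above all controls, and control rat 2 was the nearest to them. The difference was 0.60 (SE 0.11, limma adjusted p = 0.0603). The call held in 9 of 18 settings and was lost when any 1 array other than control rat 2 was left out, with limma adjusted p between 0.133 and 0.213. With the covariate it was 0.44 (limma adjusted p = 0.0899).

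Other restraints of the route were read by the same measure. Sesn3 differed by 1.46 (limma adjusted p = 0.319), with control rat 2 at -0.22 and the other controls between -3.69 and -3.48, and its sign turned to -0.47 with the covariate. Ddit4, also called Redd1, which a glucocorticoid rise is known to induce and which inhibits mTORC1, gave 0.91 at its probe at base 817 (limma adjusted p = 0.110) and 0.04 at its brighter probe at base 1376 (limma adjusted p = 0.888). The 2 Ddit4 probes thus disagreed.

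In the TSC complex, the brake that AKT relieves, the Tsc2 probes gave -0.27 and -0.15 and Tbc1d7 0.18. In mTOR complexes, Akt1s1, also called PRAS40, gave 0.60 and Mapkap1, also called SIN1, 0.16. Among mTORC1 targets, Ulk1, a kinase that starts autophagy, gave -0.30 and the Eif4b probes, for a translation initiation factor, -0.28 and -0.10. No probe named in these 3 sentences was called with all 8 rats.

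Upstream, the adaptors Irs1 and Gab1, which link receptors to PI3K, gave 0.57 and 0.72 at the 2 probes of Irs1 and 0.56 at Gab1. With the covariate they were 0.04, -0.17 and -0.02. The PI3K subunit genes outside the 8 members gave 0.22 for Pik3cd, 0.48 for Pik3r3 and 0.02 for Pik3r5, while the class III genes Pik3c3 and Pik3r4 gave -0.24 and 0.21. Pdpk1, for the kinase that activates AKT, gave -0.27. The Inpp4a phosphatase probes gave 0.41 and 0.20, the AKT substrates Gsk3a and Foxo4 0.18 and 0.16, and the lysosome branch genes Depdc5 and Lamtor2 -0.17 and, at 2 probes, -0.13 and -0.08. None of these was called with all 8 rats (limma adjusted p of 0.183 or above).

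**Figure D5:**
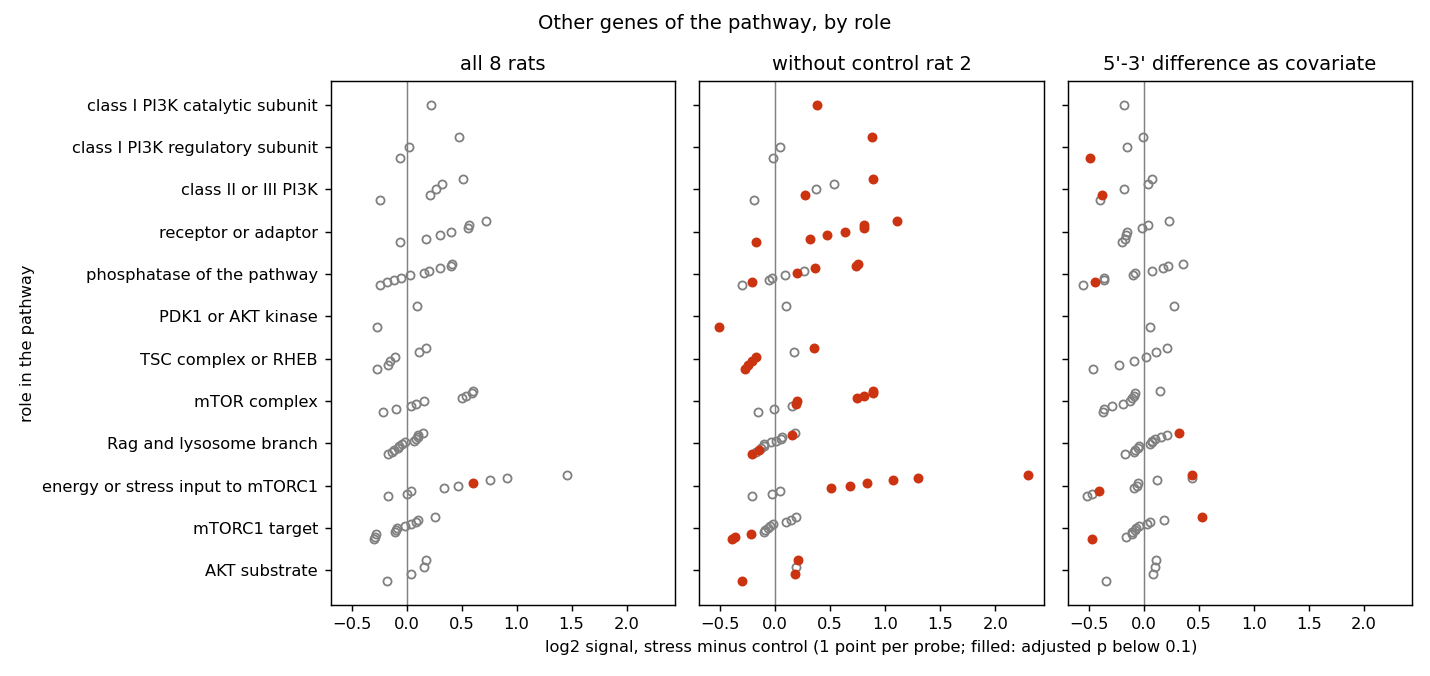
Difference in log2 signal, stress minus control (horizontal axes), at each tested probe of the other pathway genes, 1 row per role, in the 3 fits; filled points have an adjusted p below 0.1. With all 8 rats 1 point is filled (Sesn1), without control rat 2 there are 43, and with the covariate 8.

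Gdf15 and Ikbke, which the study places in this pathway from its stricter list of changed genes, were read as well. Gdf15, a stress-induced growth factor, was well above background in 3 control and 0 stressed rats and was not tested. Its signal was -7.15, -7.06, -7.22 and -6.99 in control rats 1 to 4 and -7.55, -8.44, -7.99 and -7.74 in stressed rats 1 to 4. The control values lay above the stressed ones, all of them near the limit of the array. Ikbke, for an IKK-related kinase that phosphorylates AKT among other proteins, gave -0.31 (SE 0.11, limma adjusted p = 0.190), and -0.26 without control rat 2 (limma adjusted p = 0.109). By quantitative PCR the study saw a trend in the other direction, to higher Ikbke in stressed rats, which was not significant.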

How the data were processed

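RNA from 8 rats, 4 per group, was hybridised to a 1-colour (Cy3) Agilent rat array, 1 array per rat, and read by the authors with Feature Extraction 10.7.3.1. The tissue was whole cord freed of its meninges. The deposited scanner files hold background-subtracted signal intensity per spot, in linear units. The deposited table held the same intensity values, within 0.05. The study's own tests used dChip, which was not used here.

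For this text, log2 intensity was set relative to its array's 75th percentile over all non-control spots. Outlier spots were then dropped, and the rest were averaged over a probe's spots. Probes entered the test if well above background on at least 4 of 8 arrays. Groups were compared with limma 3.58.1 in R 4.3.3 (lmFit and eBayes, Benjamini-Hochberg adjustment), and single values with an exact permutation test. The 5′-3′ difference of an array takes each transcript that has 2 tested probes separated by 300 bases or more, subtracts its 3′-most from its 5′-most log2 signal, centres this over the 8 arrays and keeps the median per array. Pathway genes were left out of it. The code was tested on simulated data. Pathway symbols were matched to the array by name, with 4 genes matched through an older symbol and 4 through a RefSeq accession.

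The 8 members, the pathway list and the marker lists were chosen with earlier results of these data known. Named genes are the members, called genes of the pathway list and up to 2 others per role with the smallest p, Gdf15 and Ikbke, and the most similar gene of each member. Values of 2 genes that this rule names are not reported here. Rats are separate animals, but no batch other than the slide is given in the sources used here. Alternatives were normexp background correction, quantile normalization, other filters, a variance trend, array weights, a replicate block, the 5′-3′ covariate and leaving out each array. The number of arrays limits the precision.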

Additional observations from a re-analysis of the deposited data

Results flagged for a closer look

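Dixon's ratio is the gap of 1 rat to its nearest other, divided by the range of the set. Among 70 sets of 4 rats (the named probes of members and pathway genes, by group), 5 held a rat above its 95% critical value. In sets chosen without regard to their values, chance would give about 3.5. The sets share rats and the pathway probes were picked by small p, so 5 beside 3.5 is not a test. In 4 of the 5 sets the rat above the critical value was control rat 2. The ratio was 0.914 at the Pik3ca probe at base 1536, where it read -4.16 and the other controls -6.27 to -6.09. It was 0.938 for Sesn3 (-0.22 against -3.69 to -3.48), 0.902 for Sesn1 (-3.06 against -3.39 to -3.36) and 0.908 for Pdpk1 (-0.07 against 0.83 to 0.92). The fifth was stressed rat 3 for Gsk3a, with a ratio of 0.876 (-2.35 against -2.17 to -2.15). The Pik3ca, Sesn3 and Sesn1 probes named here are printed in 1 spot per array.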

How the results depend on the processing

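The number of called probes depended strongly on the setting. Over all probes it was 885 (655 higher, 230 lower). It was 215 with normexp (190 higher, 25 lower), 1180 with quantile normalization (685 higher, 495 lower), 3010 without a filter, 11983 with array weights, where control rat 2 had a weight of 0.107, 2380 with the 5′-3′ covariate (1150 higher, 1230 lower), and between 0 and 10036 with 1 array left out. The value 10036 was without control rat 2, and leaving out any other array gave at most 72. With a variance trend 1295 of all probes were called, and with detection on all arrays 1079 of 22036 tested. Without a filter 30357 were tested. Of the member probes 0 were called, but 1 with a variance trend (Pik3r2), 10 with array weights, 2 with the covariate and 0 to 10 with 1 array left out, the 10 again without control rat 2. Of the other pathway probes 1 of 79 was called. With normexp 0 were called, with quantile normalization 2, without a filter 4 of 84 and with detection on all arrays 2 of 78. The count was 3 with a variance trend, 51 with array weights, 8 with the covariate and 0 to 43 with 1 array left out.

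The labels number the rats 1 to 4 in both groups. Deviations from the group means of rats with the same number correlated at 0.0952, 0.12, -0.0869 and 0.305, and 0 of 4 stressed rats correlated best with its own number, so the rats were not treated as paired. With a replicate block, 0 of all tested probes (4292 at an unadjusted p below 0.05), 0 members and 0 pathway probes were called in limma.

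With the covariate 15 of 35 named differences changed sign: those at Pik3ca bases 372 (-0.07), 752 (0.00068), 1536 (-0.43), 2355 (-0.11), 3125 (-0.08) and 6133 (0.16), Akt1 (-0.39), Akt2 (-0.08), Sesn3 (-0.47), Gab1 (-0.02), Akt1s1 (-0.08), Pik3cd (-0.18), Pik3r3 (-0.49), Pik3r5 (-0.01) and Pdpk1 (0.27). Elsewhere the sign changed only where the difference was small: Pik3ca base 752 with array weights (0.01) and without stressed rat 3 (0.08), Pik3ca base 3125 without control rat 3 (-0.0026), and Pik3r5 with normexp (-0.02), without stressed rat 4 (-0.03) and without control rat 1 (-0.0028). With 1 array left out, Pik3ca base 752 ranged from -0.17 to 0.08, Pik3ca base 3125 from -0.0026 to 0.13 and Pik3r5 from -0.03 to 0.04. Pik3ca base 372 had no value where detection on all arrays was required. Outside the members, the 35 hold 1 probe per gene. Of the further probes given above, Inpp4a base 2437 (0.41) and Irs1 base 4868 (0.72) also changed sign with the covariate, to -0.36 and -0.17. The cause of these changes was not tested.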
